A study of Homo sapiens with 16 samples.

Results

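Semaphorins, plexins and neuropilins were described here in A375 human melanoma cells and in derivatives of them that carry a catalase transgene. Members were taken by gene symbol. They were the semaphorins of classes 3 to 7, the A, B, C and D plexins and both neuropilins, each read from the transcript cluster of the array that was annotated to that symbol alone and had the highest mean over the 16 arrays. By this rule 30 genes of the 18417 with such a cluster were members, namely 19 semaphorins, 9 plexins and 2 neuropilins. SEMA4C was not analysed here.

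Each of 4 groups was hybridised to 4 Affymetrix arrays of the Human Gene 1.0 ST type, 16 in all. G10 and A7 are single clones of A375 that were stably transfected with human catalase cDNA in the pcDNA3 vector and isolated by clonal dilution. PCDNA3 cells are A375 transfected with the empty vector, and A375 cells are the untransfected line, which was established from an amelanotic melanoma. The 3 transfected groups were kept in geneticin and the A375 group was not. The 8 arrays of PCDNA3 and A375 served together as control. Each catalase transfectant is 1 clone, so an effect of catalase and a difference between clones cannot be told apart. The labels call the 4 arrays of a group biological replicates without saying that they came from separate cultures, so p-values measure the spread between these samples.

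Semaphorins are guidance proteins that share the sema domain. Class 3 semaphorins are secreted, and most of them bind neuropilins, which hand the signal to an A-type or D-type plexin. Semaphorins of classes 4 to 7 are attached to the membrane and bind plexins directly. Inside the cell, plexins inactivate small GTPases of the Ras and Rap type, which changes adhesion and the actin cytoskeleton. Neural crest cells, from which melanocytes arise, are steered by these cues during development.

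Promoter sequences are shown for SEMA5A, SEMA3D and PLXNA2, because these members fell strongly in G10 and have a single annotated start in the table used. SEMA5A, a transmembrane semaphorin with thrombospondin repeats, starts on the minus strand of chromosome 5, and the window shown is chr5:9546076-9546325. SEMA3D, a secreted semaphorin, has the window chr7:85187057-85187306 on the minus strand. PLXNA2, a plexin that receives class 3 semaphorins with neuropilin and class 6 semaphorins without it, has the window chr1:208244385-208244634 on the minus strand. The sequences are from RefSeq, build GRCh38.p14, and hold the 250 bases before the start, written 5′ to 3′ along the strand of the gene. Capitals mark GGGCGG, the core of the GC box, or its reverse complement CCGCCC.
SEMA5A: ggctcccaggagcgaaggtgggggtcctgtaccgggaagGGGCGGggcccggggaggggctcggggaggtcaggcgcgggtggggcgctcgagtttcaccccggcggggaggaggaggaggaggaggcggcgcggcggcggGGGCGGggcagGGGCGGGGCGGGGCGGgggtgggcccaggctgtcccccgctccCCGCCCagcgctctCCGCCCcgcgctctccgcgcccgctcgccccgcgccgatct
SEMA3D: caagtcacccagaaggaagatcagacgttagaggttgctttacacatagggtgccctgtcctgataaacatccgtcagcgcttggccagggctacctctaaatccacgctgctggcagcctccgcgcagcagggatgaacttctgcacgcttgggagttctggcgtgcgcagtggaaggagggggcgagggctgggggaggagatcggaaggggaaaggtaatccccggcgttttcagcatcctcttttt
PLXNA2: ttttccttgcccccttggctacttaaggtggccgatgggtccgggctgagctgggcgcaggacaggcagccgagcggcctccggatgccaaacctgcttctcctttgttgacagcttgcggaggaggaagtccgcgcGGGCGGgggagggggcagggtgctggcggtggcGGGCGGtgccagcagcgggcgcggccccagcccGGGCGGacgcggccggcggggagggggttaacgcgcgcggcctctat
GGGCGG was found 7 times in the SEMA5A window, 3 times in the PLXNA2 window and 0 times in the SEMA3D window, with overlapping matches counted. The GC content was 82.0% for SEMA5A, 72.4% for PLXNA2 and 57.6% for SEMA3D. On both strands together, GGGCGG occurred in 61.7% of 47 windows of 26 member genes, against 42.6% of 35116 windows of all genes. None of the 3 windows shown held CACGTG, the E-box, which was present in 6.34% of all promoter windows. They also lacked CATGTG, the core of the M-box of melanocyte genes, present in 9.42% of all windows. The core of the antioxidant response element, TGACNNNGC, was not among their letters either, and 10.9% of all windows held it.

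Array values are on the log2 scale, so a difference of 1 is a 2-fold change. The array medians were between 5.85 and 5.97. The mean level below which 95% of 360 olfactory receptor clusters lay, 5.18, was taken as the level of genes that a melanoma cell is not expected to transcribe. The catalase gene CAT had 8.51, 8.55, 7.74 and 8.27 in G10, 9.02, 8.92, 9.12 and 9.02 in A7, 8.51, 8.51, 8.53 and 8.71 in PCDNA3, and 8.64, 9.03, 8.65 and 8.62 in A375. CAT was not called against control in either clone (log2 fold change -0.38, limma adjusted p = 0.0526 in G10, and 0.37, adjusted p = 0.124 in A7), and the arrays labelled G10 were not above control. In G10 vs A7 CAT was called lower (-0.75, SE 0.15, limma adjusted p = 0.00221), with no overlap between the arrays. Whether the probes of this cluster lie in the transfected cDNA was not examined. The labels say only that G10 and A7 were transfected with catalase, and it is the study that describes them as overexpressing it. From a gene set analysis of its arrays, the study also lists CAT among antioxidant genes that were up in A7 and down in G10. Of 7 melanocyte markers measured, 6 were above 5.18 in all groups and TYR was below it in A375, while 0 of 3 blood and 0 of 4 endothelial markers were above it. Of 4 epithelial markers KRT14 was above it, and of 4 fibroblast markers COL3A1, LUM and PDGFRB were, and their part in the results was not tested. Correlation between arrays of a group was between 0.9844 and 0.9949.

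The 4 G10 arrays fell into pairs. Arrays 1 and 2 correlated at 0.9941 and arrays 3 and 4 at 0.9918, against 0.9844 to 0.9871 across the pairs. A7 arrays split in the same way, at 0.9940 for arrays 1 and 2 and 0.9949 for arrays 3 and 4, against 0.9875 to 0.9926 across the pairs. In G10, the 2 pairs did not overlap for 19 of 30 members (51.9% of all clusters), with arrays 1 and 2 higher for 14 and lower for 5. The same split by number was seen for 18 members in A7 (59.7% of all clusters), 8 in PCDNA3 (32.6%) and 13 in A375 (38.6%). The median SD of the members was 0.29 in G10, against 0.14 in A7, 0.14 in PCDNA3 and 0.15 in A375. Over all clusters the median SD was 0.18 in G10, 0.16 in A7, 0.16 in PCDNA3 and 0.15 in A375. The labels name no batch, so each result in G10 or A7 that rests on one pair is given below without it. Some calls that held without either pair were lost with only 1 pair of every group, as said with them.

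In levels, 25 of the 30 members were above the olfactory receptor level in all 4 groups. PLXNA4, SEMA4A and PLXNC1 were below it in every group mean, PLXNC1 being the plexin that binds SEMA7A. PLXNC1 averaged 4.45 ± 0.15 in G10, 4.37 ± 0.04 in A7, 4.46 ± 0.10 in PCDNA3 and 4.49 ± 0.21 in A375 (SD, n = 4 each). PLXNA3 was above the level only in the PCDNA3 and A375 means, and SEMA4D, a ligand of PLXNB1, only in the PCDNA3 mean.

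More members were called against control in G10 than in A7, and the same held over all clusters. At a limma adjusted p under 0.05, 11 of 30 members were called in G10 vs control, 5 higher and 6 lower, where 17.8% of all 33297 clusters were called. In A7 vs control 2 members were called, 1 higher and 1 lower, where 5.69% of all clusters were called. Without G10 replicate 1, 2 or 4 in the fit the count for A7 was 4, with PLXND1 and SEMA3A added. Between the clones, 10 members were called in G10 vs A7, 5 higher and 5 lower, where the share over all clusters was 15.2%. Among clusters above the olfactory receptor level in at least 1 group the shares called were higher, at 26.3% for G10 vs control, 7.99% for A7 vs control and 22.4% for G10 vs A7. By direction, the shares over all clusters were 9.92% higher and 7.9% lower in G10 vs control, 3.46% higher and 2.23% lower in A7 vs control, and 7.83% higher and 7.38% lower in G10 vs A7. Changes of 2-fold or more were called for 6 members in G10 vs control (1.84% of all clusters), 1 in A7 vs control (0.706%) and 6 in G10 vs A7 (2.28%). In G10 vs control no array overlapped for 3 members that were higher (5.96% of all clusters) and 6 that were lower (4.35%). This held in A7 vs control for 1 higher (3.5%) and 3 lower (2.47%), and in G10 vs A7 for 6 higher (8.89%) and 5 lower (8.48%). The comparisons of G10 and A7 with control share the 8 control arrays. Median changes were near 0, at -0.01 for the members and -0.04 for all clusters in G10, and -0.13 for the members and -0.02 for all clusters in A7. In PCDNA3 vs A375, where vector, transfection and geneticin cannot be told apart, 1 member was called, SEMA6D, while 0.123% of all clusters were called and 0.0781% were lower.

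**Figure D1:**
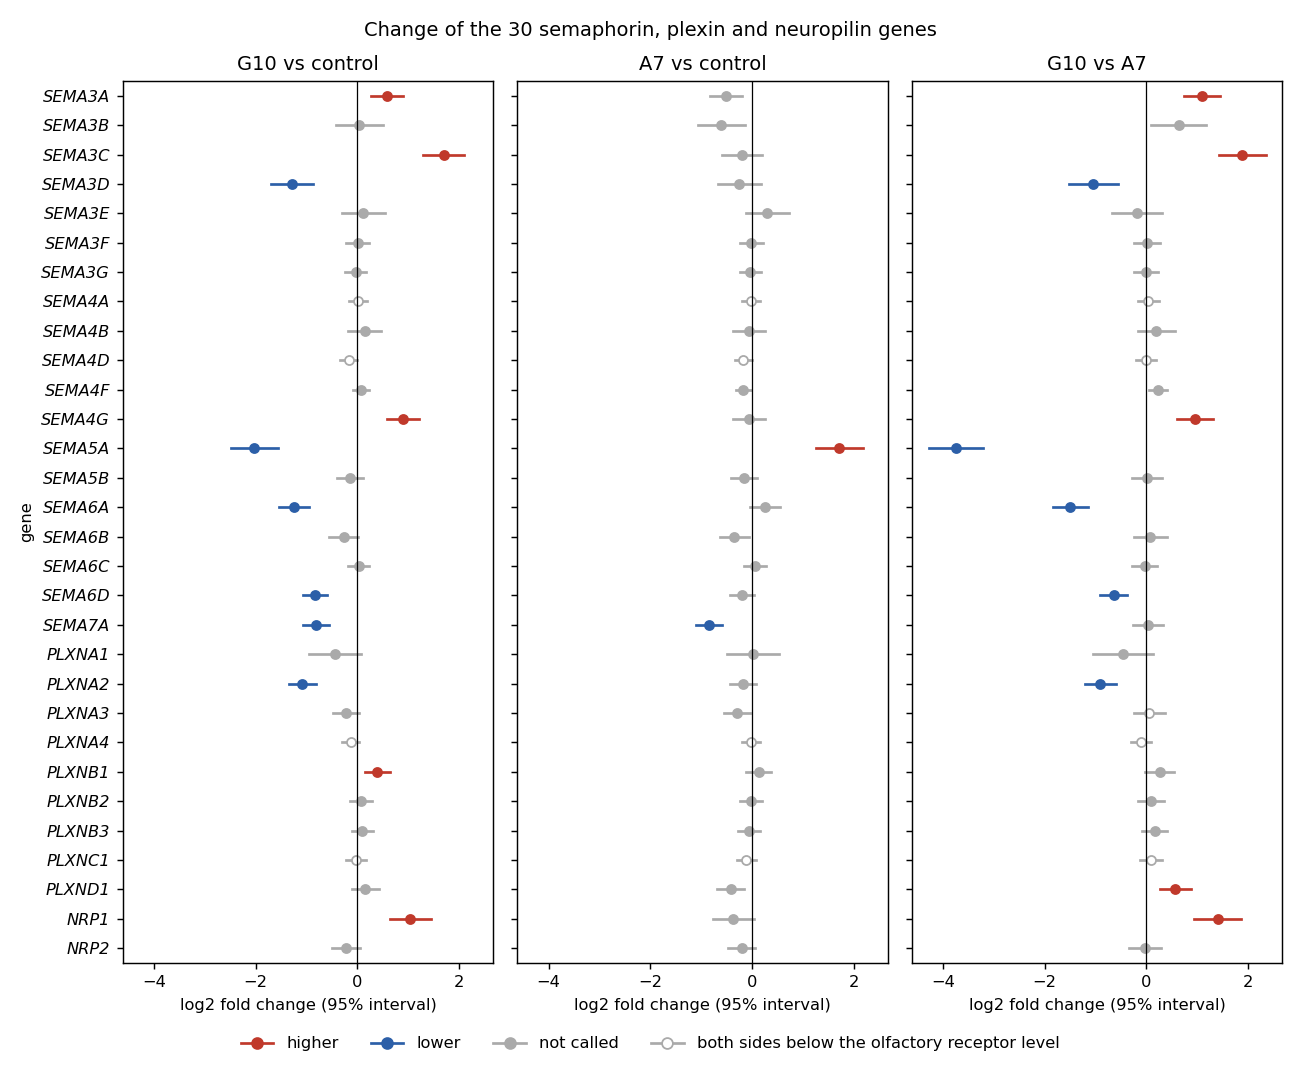
Log2 fold change (x axis, with 95% confidence intervals) of each of the 30 members (y axis) in G10 vs control, A7 vs control and G10 vs A7, red where called higher, blue where called lower and grey where not called at a limma adjusted p of 0.05, with open points where both sides lay below the olfactory receptor level. SEMA5A lies at -2.03 in G10 vs control and 1.72 in A7 vs control, and 11 members are coloured in the G10 panel against 2 in the A7 panel.

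SEMA5A moved in opposite directions in the clones. Its values were 5.44, 5.22, 6.58 and 5.80 in G10, 9.56, 9.90, 9.34 and 9.24 in A7, 7.84, 7.40, 7.89 and 7.90 in PCDNA3, and 8.12, 8.07, 7.34 and 7.76 in A375. All A7 arrays were above, and all G10 arrays below, every control array, and the lowest G10 arrays came close to the olfactory receptor level. In A7 it rose by 1.72 (SE 0.22, 3.30-fold, adjusted p = 0.000146 by limma). In G10 it fell by 2.03 on the log2 scale (SE 0.22, adjusted p = 8.51e-06 by limma), a 4.08-fold lower level. G10 vs A7 gave -3.75 (SE 0.25, limma adjusted p = 4.51e-08), the largest change of any member in that comparison. In G10 vs control it was the only member past 4-fold at an adjusted p up to 1e-04, which 0.288% of all clusters were. The size depended on the arrays. It was -1.60 without G10 arrays 1 and 2, -2.46 without G10 arrays 3 and 4 and just under 4-fold against PCDNA3 alone (-1.998), each of them called. The A7 change was 1.5 without A7 arrays 1 and 2 and 1.94 without A7 arrays 3 and 4, both called. SEMA5A binds PLXNB3, which had 7.28 ± 0.29 in G10, 7.12 ± 0.08 in A7 and 7.18 ± 0.18 in control (SD, n = 4, 4 and 8) and was not called in either clone.

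The secreted class 3 semaphorins did not move together. SEMA3C, which signals through neuropilins and PLXND1, had 10.11, 10.00, 9.25 and 9.19 in G10, against 7.88, 7.70, 7.66 and 7.75 in A7, 7.85, 8.17, 8.42 and 7.64 in PCDNA3, and 7.46, 7.88, 7.92 and 8.17 in A375. Every G10 array lay above all others. SEMA3C rose by 1.70 in G10 vs control (SE 0.19, 3.24-fold, limma adjusted p = 1.04e-05) and was 1.89 higher than in A7 (SE 0.22, adjusted p = 1.68e-05).

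SEMA3A, the first described of the collapsins that repel growth cones through NRP1 and A-type plexins, had 11.04, 11.10, 10.57 and 10.09 in G10, against 9.59, 9.80, 9.56 and 9.47 in A7, 10.03, 9.85, 9.87 and 9.90 in PCDNA3, and 10.39, 10.43, 10.14 and 10.28 in A375. The G10 arrays overlapped the A375 arrays, while all A7 arrays lay below all control arrays. SEMA3A was 0.59 higher in G10 vs control (SE 0.15, limma adjusted p = 0.0101) and 1.09 higher in G10 vs A7 (SE 0.17, adjusted p = 0.000306), and -0.51 in A7 vs control did not pass (adjusted p = 0.058). The G10 call rested on the arrays chosen. It gave 0.39 against A375 alone (adjusted p = 0.159), 0.46 without G10 replicate 2 (adjusted p = 0.054) and 0.22 without G10 arrays 1 and 2 (adjusted p = 0.312), against 0.96 without G10 arrays 3 and 4, the adjusted p over all alternatives running from 1.21e-05 to 0.312. With the replicate number as a block SEMA3A passed in A7 vs control (adjusted p = 0.0358). The A7 change was -0.71 and called against A375 alone, and -0.31 and not called against PCDNA3 alone. All PCDNA3 arrays lay below all A375 arrays. Without G10 arrays 1 and 2, G10 vs A7 was 0.72 and still called.

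SEMA3D went the other way in G10. It had 5.10, 5.17, 5.85 and 5.10 in G10, against 6.65, 6.74, 5.96 and 6.04 in A7, 6.66, 6.28, 6.91 and 6.07 in PCDNA3, and 6.64, 7.04, 6.58 and 6.57 in A375. 3 of the 4 G10 arrays were below the olfactory receptor level, and all were below every other array. SEMA3D fell by 1.29 in G10 vs control (SE 0.19, 2.44-fold lower, limma adjusted p = 0.000209) and G10 vs A7 gave -1.04 (SE 0.23, adjusted p = 0.00412). Without G10 arrays 1 and 2 the difference from A7 was -0.87 (adjusted p = 0.0541, range over the alternatives 0.00115 to 0.315), and without A7 arrays 1 and 2 it was -0.70 (adjusted p = 0.0914). With only arrays 3 and 4 of every group it was -0.52 (adjusted p = 0.315), and G10 vs control was then -1.05 (adjusted p = 0.0522). SEMA3B, SEMA3E, SEMA3F and SEMA3G were not called in either clone.

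SEMA3C, SEMA3E, SEMA3A and SEMA3D lie in that order on the long arm of chromosome 7, with other genes between the first and the second. In G10 vs control the 4 gave 1.70, 0.12, 0.59 and -1.29, with SEMA3E not called (limma adjusted p = 0.771). In A7 vs control they gave -0.19, 0.30, -0.51 and -0.24, none of them called. Genes nearby did not share 1 direction in G10. HGF, the next gene after SEMA3C, was called lower in G10 and in A7, by at least 0.08 in each (limma adjusted p = 0.000697 and 0.00718). Its means in both clones were under the olfactory receptor level, and its arrays overlapped those of control. PCLO, a presynaptic scaffold gene, rose by 1.08 (SE 0.17, adjusted p = 0.000253) and GNAI1, a G protein subunit, by 1.02 (SE 0.15, adjusted p = 0.00012), while CD36, a fatty acid receptor, averaged 4.72 ± 0.54 in G10, below the olfactory receptor level, against 6.20 ± 0.40 in control, and fell by at least 1.01 (SD, n = 4 and 8, adjusted p = 0.000293). ELAPOR2 rose by 1.66 (SE 0.21, adjusted p = 4.47e-05). GNAI1 and ELAPOR2 were higher in A7 vs control too, by 1.80 (SE 0.15, adjusted p = 1.31e-06 by limma) and by 1.82 (SE 0.21, adjusted p = 6.69e-05), while PCLO at 0.25 was not called there.

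**Figure D2:**
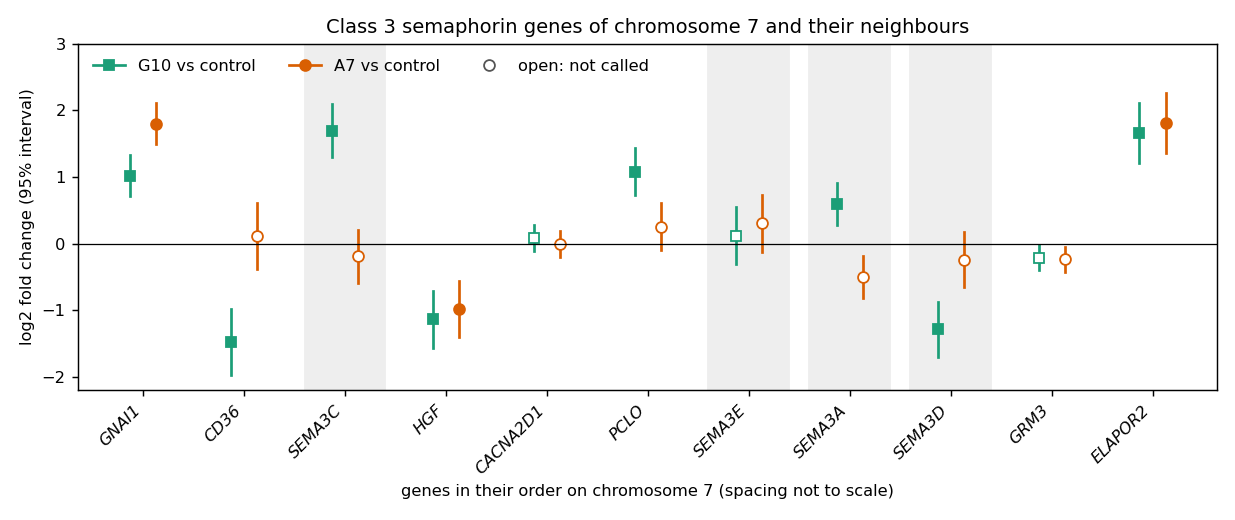
Log2 fold change vs control (y axis, with 95% confidence intervals) of RefSeq protein-coding genes in their order on chromosome 7 (x axis, spacing not to scale), squares for G10 and circles for A7, open where not called, with the 4 class 3 semaphorins shaded; genes with a mean under the olfactory receptor level are drawn at the measured difference. In G10, SEMA3C lies at 1.70, SEMA3E at 0.12, SEMA3A at 0.59 and SEMA3D at -1.29.

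NRP1, a receptor for class 3 semaphorins and for VEGF, had 7.77, 7.83, 8.57 and 7.90 in G10, against 6.37, 6.63, 6.75 and 6.72 in A7, 6.64, 7.53, 7.56 and 6.70 in PCDNA3, and 6.67, 7.10, 6.70 and 6.95 in A375. All G10 arrays were above all others, with the nearest PCDNA3 arrays at 7.53 and 7.56. NRP1 rose by 1.04 in G10 vs control (SE 0.19, 2.05-fold, limma adjusted p = 0.00104) and was 1.40 higher than in A7 (SE 0.22, adjusted p = 0.00032). With only arrays 1 and 2 of every group, G10 vs control was 0.82 and not called (adjusted p = 0.0687). NRP2, the other neuropilin and the main partner of SEMA3F, averaged 10.28 ± 0.41 in G10, 10.31 ± 0.08 in A7 and 10.51 ± 0.11 in control (SD, n = 4, 4 and 8) and was not called. Its G10 values split by pair, at 10.62 and 10.66 in arrays 1 and 2 and 9.92 and 9.94 in arrays 3 and 4. A second NRP2 cluster of the array was 0.66 higher in G10 vs A7 (SE 0.15, limma adjusted p = 0.006), so the clusters of this gene disagree.

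Of the 10 membrane-attached semaphorins of classes 4, 6 and 7, SEMA4G was called higher and SEMA6A, SEMA6D and SEMA7A lower in G10 vs control, and the other 6 were not called. A second SEMA4D cluster of the array was called lower there (limma adjusted p = 0.0414). Both of its means were under the olfactory receptor level and its arrays overlapped. SEMA6A, a ligand of PLXNA2 and PLXNA4, had 5.81, 5.80, 6.09 and 6.12 in G10, against 7.40, 7.93, 7.23 and 7.26 in A7, 7.05, 7.13, 7.47 and 6.77 in PCDNA3, and 7.07, 7.40, 7.31 and 7.39 in A375. All G10 arrays were lower than all others. SEMA6A fell by 1.24 in G10 vs control (SE 0.14, 2.37-fold lower, limma adjusted p = 1.51e-05), and G10 vs A7 gave -1.50 (SE 0.16, adjusted p = 1.1e-05).

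PLXNA2, its receptor, had 5.11, 5.20, 5.52 and 5.28 in G10, against 6.31, 6.44, 6.02 and 5.98 in A7, 6.22, 6.42, 6.39 and 6.17 in PCDNA3, and 6.54, 6.77, 6.12 and 6.27 in A375. Again no G10 array reached any other array, and 1 of them was under the olfactory receptor level. PLXNA2 fell by 1.08 in G10 vs control (SE 0.12, 2.12-fold lower, limma adjusted p = 1.53e-05), and G10 vs A7 gave -0.91 (SE 0.14, adjusted p = 0.000332). PLXNA4, the other receptor of SEMA6A, was under that level throughout. PLXNA1, a receptor of SEMA6D, had 6.42, 6.63, 8.28 and 7.32 in G10 and was not called. Arrays 1 and 2 were below the control range of 7.28 to 7.76, array 3 above it and array 4 within it.

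SEMA7A, which is anchored to the membrane by a lipid and binds integrins as well as PLXNC1, was the only member called lower in both clones. It averaged 7.19 ± 0.34 in G10 and 7.16 ± 0.09 in A7, against 8.0 ± 0.17 in control (SD, n = 4, 4 and 8), and in each clone no array overlapped the control arrays. It fell by 0.82 in G10 vs control (SE 0.12, limma adjusted p = 0.000164) and by 0.84 in A7 vs control (SE 0.12, adjusted p = 0.000432). Without G10 arrays 3 and 4 the G10 change was -0.53 and still called (adjusted p = 0.00245, range over the alternatives 9.24e-06 to 0.0106).

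SEMA4G, a class 4 semaphorin, averaged 6.65 ± 0.37 in G10, 5.69 ± 0.27 in A7 and 5.74 ± 0.17 in control (SD, n = 4, 4 and 8). It rose by 0.91 in G10 vs control (SE 0.15, limma adjusted p = 0.000397) with no overlap between the arrays. With only arrays 3 and 4 of every group the call was lost (adjusted p = 0.0568). PLXNB1, the receptor of SEMA4D, averaged 6.18 ± 0.30 in G10, 5.92 ± 0.10 in A7 and 5.79 ± 0.14 in control. Its 0.39 in G10 vs control (SE 0.11, limma adjusted p = 0.0257) came with overlapping arrays. The call was lost without G10 replicate 1 (0.28, adjusted p = 0.117), without G10 replicate 2 (0.34, adjusted p = 0.0993) and against A375 alone (0.36, adjusted p = 0.0842). It was 0.15 without G10 arrays 1 and 2 and 0.63 without G10 arrays 3 and 4, and the adjusted p over all alternatives ran from 0.000886 to 0.471.

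SEMA6D depended on which control was used. It averaged 5.44 ± 0.15 in G10, 6.09 ± 0.25 in A7, 5.84 ± 0.05 in PCDNA3 and 6.72 ± 0.21 in A375 (SD, n = 4 each). G10 vs control was -0.84 (SE 0.11, limma adjusted p = 6.07e-05), made up of -1.28 against A375 alone and -0.40 against PCDNA3 alone (adjusted p = 0.0462, range over the alternatives 5.64e-06 to 0.0462). PCDNA3 vs A375 was -0.89 (SE 0.13, limma adjusted p = 0.0171), a call lost without PCDNA3 replicate 1 (-0.87, adjusted p = 0.054) or A375 replicate 2 (-0.87, adjusted p = 0.0618). In A7 it was not called against the joint control, and gave -0.64 against A375 alone (adjusted p = 0.00844) and 0.25 against PCDNA3 alone (adjusted p = 0.364, range over the alternatives 0.00844 to 0.814).

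PLXND1, which SEMA3E and, with neuropilins, SEMA3C bind, averaged 7.16 ± 0.38 in G10, 6.59 ± 0.09 in A7 and 7.0 ± 0.20 in control (SD, n = 4, 4 and 8). It was called in G10 vs A7 only, at 0.57 (SE 0.14, limma adjusted p = 0.013). Without G10 arrays 1 and 2 this was 0.24 (adjusted p = 0.167, range over the alternatives 3.37e-05 to 0.215), while without G10 arrays 3 and 4 it was 0.90. Without A7 arrays 1 and 2 it was 0.58 (adjusted p = 0.0659), and without A7 arrays 3 and 4 it was 0.55 (adjusted p = 0.0783). The members not called against control in either clone lay between -0.60 (SEMA3B) and 0.30 (SEMA3E) in A7, and between -0.43 (PLXNA1) and 0.16 (PLXND1) in G10.

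**Figure D3:**
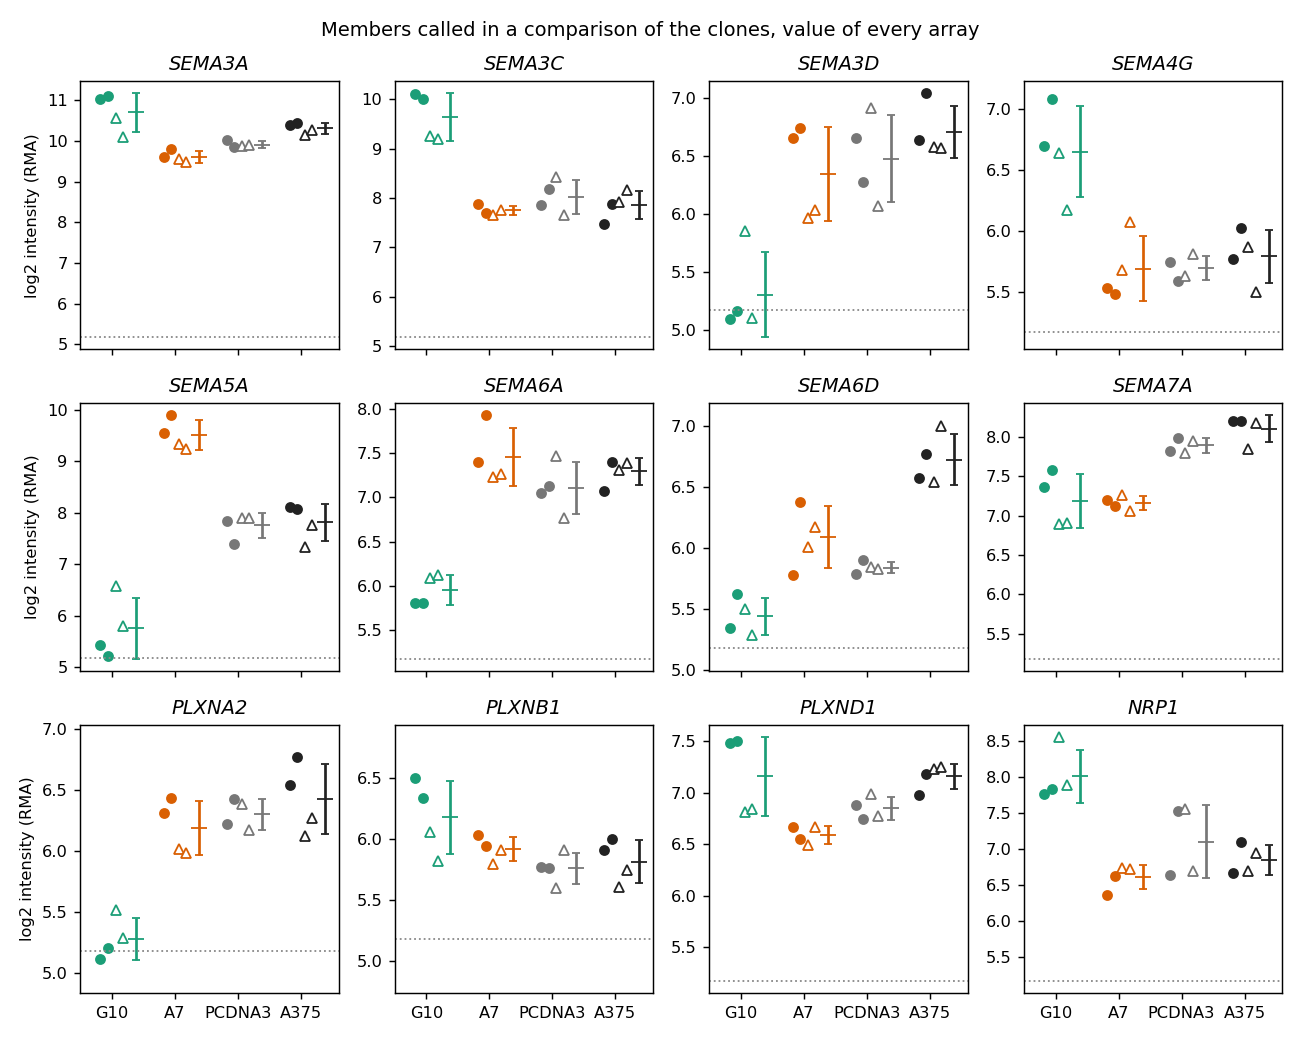
Log2 intensity (y axis, a separate scale in each panel) of the 12 members called in a comparison of the clones, for G10, A7, PCDNA3 and A375 (x axis), with filled circles for arrays 1 and 2, open triangles for arrays 3 and 4, the group mean with its SD (n = 4) beside the points, and a dotted line at the olfactory receptor level. All 4 G10 arrays lie outside the range of the control arrays for SEMA5A, SEMA3C, SEMA3D, SEMA4G, SEMA6A, SEMA6D, SEMA7A, PLXNA2 and NRP1. The A7 arrays lie above that range for SEMA5A and below it for SEMA7A, SEMA3A and PLXND1.

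Of 73 genes listed as acting with these families, 66 were measured. In G10 vs control 13 were higher and 17 lower, in A7 vs control 0 were higher and 8 lower, and in G10 vs A7 13 were higher and 12 lower. Beside the shares of all clusters given above, 45.5%, 12.1% and 37.9% of the listed genes were called, and in PCDNA3 vs A375 0 were called by limma. In PCDNA3 vs A375, 13 listed genes (19.7%) had an unadjusted p under 0.05, as did 12.6% of all clusters and 15.8% of those above the olfactory receptor level. Without A7 replicate 1 the count for A7 was 2, and without A7 replicate 3 it was 4. For A7 vs control, 23 listed genes (34.8%) had an unadjusted p under 0.05, as did 17.1% of all clusters and 21.4% of those above the level. In G10, co-receptors and adhesion partners were called 5 times of 15, all higher, and proteases that act on semaphorins 5 times of 6, with 1 higher and 4 lower. GTPases and their regulators were higher in 3 and lower in 7 of 21, and kinases and cytoskeletal effectors higher in 3 and lower in 5 of 20.

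TIAM1, an activator of Rac, fell by 2.14 in G10 vs control (SE 0.11, limma adjusted p = 1.45e-09). PCSK6, a proprotein convertase, fell by 1.22 (SE 0.11, adjusted p = 1.82e-06), and ADAMTS1, a secreted protease, by 1.15 (SE 0.17, adjusted p = 0.000139). L1CAM, an adhesion molecule that joins NRP1 in the SEMA3A receptor, rose by 1.01 (SE 0.20, adjusted p = 0.00182). NRCAM, of the same adhesion family, averaged below the olfactory receptor level in control and was higher in G10 by at least 0.29 (adjusted p = 0.00337). With only arrays 3 and 4 of every group the ADAMTS1 and NRCAM calls were lost (limma adjusted p = 0.0572 and 0.140). LIMK1, the kinase of cofilin, fell by 0.78 (SE 0.16, adjusted p = 0.00266), and without G10 arrays 1 and 2 this call was lost (-0.38, adjusted p = 0.0939).

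In A7 vs control the listed genes moved less. FARP1, a guanine nucleotide exchange factor, gave -0.50 (SE 0.11, limma adjusted p = 0.0098), and TIAM1 gave -0.49 (SE 0.11, adjusted p = 0.0122). Without A7 replicate 1 TIAM1 was -0.46 and no longer called (adjusted p = 0.0545). FLT1, a VEGF receptor, and NRCAM were called lower with both means under the olfactory receptor level, so no size is given. RND2, which binds plexins, was lower by at least 0.41 (adjusted p = 0.0196) and PCSK6 gave -0.41 (adjusted p = 0.0413). The NRCAM, RND2 and PCSK6 calls were lost on leaving out A7 replicate 1, 2 or 3 (adjusted p from 0.0555 to 0.135). PCSK6 lost its call also without A7 replicate 4, PCDNA3 replicate 1 or 4, or A375 replicate 1, 2 or 4. Against PCDNA3 alone, 5 of the 6 were not called, with adjusted p by limma of 0.0739 for FARP1, 0.0877 for TIAM1, 0.0591 for NRCAM, 0.119 for RND2 and 0.503 for PCSK6, which was -0.20 against PCDNA3 alone and -0.63 against A375 alone. None of the 6 was called without A7 arrays 1 and 2 (adjusted p from 0.0915 to 0.264). FLT1 and RND2 were called without A7 arrays 3 and 4.

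In G10 vs A7, TIAM1 gave -1.65 (SE 0.12, limma adjusted p = 1.8e-07), and NRCAM was higher by at least 0.29 (adjusted p = 6.07e-05). CHL1, an adhesion partner of NRP1, gave -1.17 (SE 0.30, adjusted p = 0.0123), ADAM10, a membrane sheddase, -0.91 (SE 0.12, adjusted p = 0.000102), FARP2, which links PLXNA1 to Rac, -0.93 (SE 0.15, adjusted p = 0.000536), and FARP1 0.91 (SE 0.12, adjusted p = 8.61e-05). The CHL1 call was lost without G10 arrays 3 and 4 (-0.63, adjusted p = 0.183) and without A7 arrays 1 and 2 (-0.91, adjusted p = 0.142).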

How the data were processed

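The deposited log2 values, 1 per transcript cluster and array of 33297 clusters on 16 arrays, were made by the authors with background correction, quantile normalization and summary by RMA. The version of RMA was not given in the sources used here. The array number limits the precision. Gene names came from the platform annotation, and 19460 clusters had 1 symbol.

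From these values, limma 3.58.1 in R 4.3.3 fitted all 4 groups in 1 model over all clusters, and A7 and G10 were compared with the mean of the 8 PCDNA3 and A375 arrays, as in the study, and with each other. p-values were adjusted by Benjamini-Hochberg over all clusters, and an adjusted p under 0.05 was a call. Where a group mean was under the olfactory receptor level, a change is given as at least the difference to that level. Members called at 2-fold or more are given by array, other called members by group mean, and of the listed pathway genes up to 6 called per comparison, the largest by change, were eligible to be named. Members and lists were chosen with earlier results of these data known. Alternatives were another control, array set, normalization, variance setting, filter and cluster rule, a replicate block and each array left out. Whether a gene has a promoter window was looked up in the RefSeq table, and NRP1, SEMA3A, SEMA6A and SEMA6B had none. The code of the fit was tested on simulated data with independent noise and the same SD in all groups. These data lacked the pairs of arrays and the larger spread of G10, so the test does not cover either. Python 3.11.15 with pandas 2.3.3 read the sequences.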

Additional observations from a re-analysis of the deposited data

Results flagged for a closer look

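In 7 group sets of 4 arrays, 1 array stood far from the other 3 by Dixon's test. These were G10 array 3 for NRP1 (8.57, others 7.77 to 7.90), for SEMA3D (5.85, others 5.10 to 5.17) and for ADAMTS1 (6.26, others 5.20 to 5.36), A375 array 2 for SEMA3D (7.04, others 6.57 to 6.64), PCDNA3 array 1 for SEMA3F (6.20, others 5.81 to 5.88), PCDNA3 array 2 for SEMA5A (7.40, others 7.84 to 7.90) and A375 array 3 for SEMA7A (7.85, others 8.18 to 8.21). Chance marks about 1 in 20 such sets, and 6 of 120 sets of members and 1 of 48 of the named pathway genes were marked.

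The effects of the clones against control differed, by limma's test of G10 vs A7, for 10 members and for 8 of the 12 pathway genes named here, and 25 of the 66 measured pathway genes were called in G10 vs A7. The effect in G10 minus that in A7 was 1.40 for NRP1, -0.91 for PLXNA2, 0.57 for PLXND1, 1.09 for SEMA3A, 1.89 for SEMA3C, -1.04 for SEMA3D, 0.96 for SEMA4G, -3.75 for SEMA5A, -1.50 for SEMA6A and -0.65 for SEMA6D. Among the pathway genes it was 0.91 for FARP1, -1.65 for TIAM1, -0.80 for PCSK6 and -0.63 for ADAMTS1. It was -1.17 for CHL1, -0.93 for FARP2 and -0.91 for ADAM10. For NRCAM the measured difference was 1.57, with the A7 and control means under the olfactory receptor level. This value is therefore not a size, and only the lower limit given above for NRCAM in G10 vs A7 holds. The ADAMTS1 call was lost without A7 replicate 3 or 4 or G10 replicate 1, 2 or 4 (adjusted p from 0.0885 to 0.104 by limma), with only the arrays compared (adjusted p = 0.126), without G10 arrays 1 and 2 (-0.43, adjusted p = 0.277), without A7 arrays 3 and 4 (-0.46, adjusted p = 0.273) and with only arrays 3 and 4 of every group (-0.60, adjusted p = 0.234). The SEMA3D, PLXND1 and CHL1 differences lost their calls in the settings given with them above. PLXND1 lost its call also with only the arrays compared and with only arrays 3 and 4 of every group. CHL1 lost it also with only arrays 1 and 2. The SEMA4G call was lost with only arrays 3 and 4 (limma adjusted p = 0.153), and the SEMA6D call with only arrays 1 and 2 (adjusted p = 0.108).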

How the results depend on the processing

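For 24 called member results, 767 of 794 alternatives kept direction and call, 27 lost the call and 0 reversed. For 13 results of these members that were not called, 32 of 438 gained a call and 15 reversed. For 24 called pathway results, 89 of 799 lost the call and 0 reversed. The alternatives overlap, and leaving out an array of a group not compared does not move the estimate, so these are not independent checks. The counts of members called moved as follows. In A7 vs control, against 2, there were 6 with A375 alone as control, 6 with only the arrays compared, 5 with array weights, 4 with only clusters above the olfactory receptor level, 4 with only 1-symbol clusters, 5 without G10 arrays 1 and 2, 6 without G10 arrays 3 and 4, 1 at a 2-fold limit, and 2 to 4 with 1 array left out (4 without G10 replicate 1, 2 or 4). In G10 vs control, against 11, there were 6 at a 2-fold limit and 9 to 12 with 1 array left out. In G10 vs A7, against 10, there were 16 without G10 arrays 3 and 4, 6 at that limit and 10 to 12 with 1 array left out. In PCDNA3 vs A375, against 1, there were 3 without G10 arrays 1 and 2, 4 without G10 arrays 3 and 4, and 0 with only arrays 1 and 2, with only arrays 3 and 4, and at that limit, and 0 to 1 with 1 array left out (0 without PCDNA3 replicate 1 or A375 replicate 2).

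Of the pathway genes, A7 vs control gave 8, against 4 with PCDNA3 alone as control, 14 with only the arrays compared, 13 with array weights, 13 without G10 arrays 1 and 2, 15 without G10 arrays 3 and 4, 2 without A7 arrays 1 and 2, 3 without A7 arrays 3 and 4, 0 with only arrays 3 and 4, and 2 to 11 with 1 array left out (2 without A7 replicate 1 and 4 without A7 replicate 3). G10 vs control gave 30, against 19 with only arrays 3 and 4 and 22 to 30 with 1 array left out. G10 vs A7 gave 25, against 15 with only the arrays compared, 16 without A7 arrays 3 and 4 and 18 to 26 with 1 array left out. The settings that use the 2 pairs of arrays of each group were chosen after seeing the data. The causes were not tested.

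Results not called changed sign as follows. PLXND1 in G10 vs control was -0.18 without G10 arrays 1 and 2 and -0.23 with only arrays 3 and 4. In A7 vs control, PLXNA2 was 0.010 and SEMA3D 0.10 without A7 arrays 3 and 4, SEMA4G was 0.13 without A7 arrays 1 and 2, SEMA3D was 0.042 with only arrays 1 and 2, SEMA6D 0.25 against PCDNA3 alone, and SEMA4G 0.17 with only arrays 3 and 4 and 0.0017 to 0.018 with A7 replicate 1 or 2 left out. SEMA7A in G10 vs A7 was -0.01 to -0.11 with A7 replicate 4 or G10 replicate 1 or 2 left out, and -0.26 both without G10 arrays 1 and 2 and with only arrays 3 and 4. RND2 was -0.082 and LIMK1 0.046 in G10 vs A7 with only arrays 3 and 4, and CHL1 in G10 vs control was 0.12 without G10 arrays 3 and 4 and 0.052 with only arrays 1 and 2.

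The replicate numbers do not pair the arrays: same-numbered deviations from the group means correlated between -0.16 and 0.23 in 24 pairs, and 4 of 16 arrays correlated best with their own number. With the replicate number as a block, 3 members were called in A7 vs control, 11 in G10 vs control, 10 in G10 vs A7 and 1 in PCDNA3 vs A375, and no other member call changed. Array signal limits PLXNA4, SEMA4A and PLXNC1, whose levels were under that of olfactory receptors in every group.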
